A study of Homo sapiens with 13 samples.

Results

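Total RNA of K562 cells was compared between 4 h and 2 h after the end of a metabolic labelling pulse. The comparison rests on 4 of the 13 libraries of the study, 2 replicates per time, and on 16255 of the 59204 human genes in the count table, namely those that passed a filter on low counts. K562 is an established line from a chronic myeloid leukaemia with the BCR-ABL1 fusion gene, and it produces fetal globin. All chase libraries, those of 2 h and 4 h included, came from cells kept for 12 h in 30 µM 4-thiouridine (4sU), a uridine analogue that enters new RNA, with fresh medium every 3 h. The cells were then washed in ice-cold buffer and put into warm medium with 3 mM uridine, and were harvested after 0, 1, 2, 4, 8 or 12 h. One further library came from cells without 4sU. RNA of Drosophila S2 cells was added at 5% as a spike-in, and the libraries were read from the 3' ends of mRNAs. The line has 1 genotype throughout, no drug was given, and no sample went through the washes without 4sU and then a chase, so time after the wash, loss of 4sU and recovery from handling cannot be told apart.

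A total count sums labelled molecules made during the pulse and unlabelled ones made before or after it. A gene whose production and decay are in balance keeps its total while its labelled share falls, whereas a shift in that balance changes the total. The totals here are relative to library size, so a change in them does not by itself show such a shift. Immediate early genes are a textbook case: they are switched on within minutes by serum, cold or mechanical stimuli without new protein synthesis, and their mRNAs carry signals for fast decay, so that a pulse of mRNA comes and goes. Sterol genes are governed by SREBP transcription factors, which are released from the endoplasmic reticulum when membrane cholesterol is low.

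The 2 h libraries held 14315013 and 13522741 human counts and the 4 h libraries 12798505 and 11180308, of which 33.1% and 32.7% were labelled at 2 h and 26.3% and 26.3% at 4 h. The ratio of human to spike-in counts was 12.7 and 14.3 at 2 h and 13.3 and 13.4 at 4 h, so the groups overlapped. The Drosophila spike-in itself did not have the same composition in all libraries. On its first principal component both libraries of 2 h (scores of -1.26 and -3.02) and replicate 1 of 4 h (-3.18) lay with those of 0 h and 1 h. Replicate 2 of 4 h (2.70) lay with those of 8 h, 12 h and the library without 4sU. The overall counts and those of the gene lists are therefore also given without replicate 2 of 4 h. Erythroid identity was visible in all 4 libraries, with GATA1 at 66.8 to 85.0 CPM (counts scaled to library size by TMM) and HBG1 at 4121 to 4827 CPM, although HBG1 and HBG2 are near-identical and their counts may be shared. Markers of other blood cells summed to far less than HBG1 alone. The 16 megakaryocyte markers summed to 8.11 and 9.34 CPM at 2 h and 7.18 and 7.16 CPM at 4 h, with 7 of them, among them PF4, PPBP and GP9, at 0. The 17 granulocyte and monocyte markers summed to 33.6 and 33.9 CPM at 2 h and 28.6 and 33.5 CPM at 4 h with MPO at 0, and the 18 lymphocyte markers to 26.1 and 18.9 CPM at 2 h and 21.8 and 21.5 CPM at 4 h with 5 at 0.

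Between 2 h and 4 h, 1195 genes rose and 955 fell at an adjusted p under 0.05, which is 7.35% and 5.88% of the genes tested, and 14105 did neither. Most changes were small. The median fold was 1.35 for genes that rose and 1.33 for genes that fell, and a change of at least 2-fold was found for 70 and 69 genes. The median log2 fold change of all genes tested was -0.02. Each of the 2150 called genes moved in the same direction in both 4 h libraries against the mean of the 2 h libraries, and the ranges of the 2 groups did not overlap for 2149 of them, against 52.2% of all genes tested. The same libraries made the calls, so this agreement largely follows from the calls and is not separate support. Without replicate 2 of 4 h, 881 genes rose and 744 fell. Of the genes called with all libraries, 747 and 573 were called again, and no gene was called in the opposite direction. Without replicate 1 of 2 h the counts were 613 and 368, and without replicate 2 of 2 h they were 670 and 532. The plot of change against level shows where the named genes lie.

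**Figure D1:**
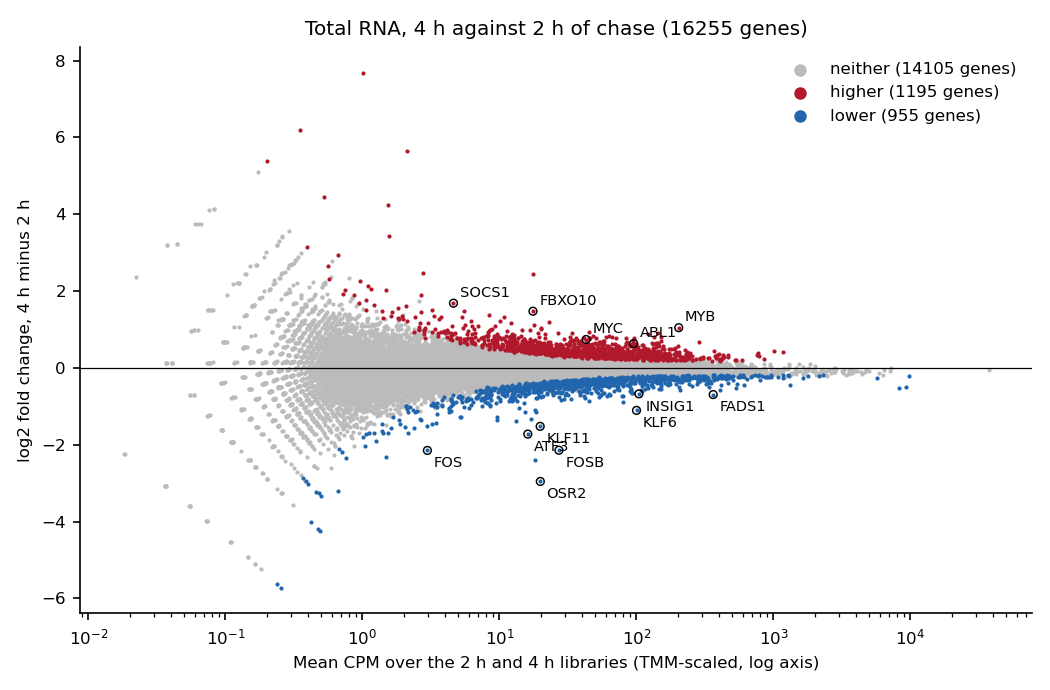
Each point is 1 of 16255 genes, with its mean CPM over the 4 libraries on a log axis and its log2 fold change (4 h minus 2 h); 1195 genes rose (red), 955 fell (blue) and 14105 did neither (grey). OSR2, FOSB and ATF3 stand far below the other genes of their level, and MYB and FBXO10 stand above them; the scatter at the left, under 1 CPM, comes from genes with few counts.

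Among the 10 largest falls, 5 were of genes that had risen in the first hour of chase (OSR2, FOSB, KLF11, MIR23AHG and TMEM67). Of 27 immediate early genes tested, 12 fell and 6 rose, with a median log2 fold change of -0.33. The shares of all genes tested, 5.88% that fell and 7.35% that rose, are the background for this count and for every list count below. Without replicate 2 of 4 h 7 fell and 4 rose, without replicate 1 of 4 h 11 and 5, and without replicate 1 or 2 of 2 h 10 and 2 or 8 and 4. FOSB, a partner of JUN proteins in the AP-1 transcription factor (chromosome 19, 45467995 to 45475179, GRCh38), was at 47.4 and 41.5 CPM at 2 h and at 12.5 and 7.34 CPM at 4 h, a log2 fold change of -2.14 (SE 0.17, adjusted p = 2.6e-09). It had stood at 0.836 and 0.799 CPM at the end of the pulse and at 60.0 and 49.6 CPM after 1 h. So both libraries of 4 h lay below both of 2 h and still above those of 0 h. FOS itself (chromosome 14, 75278774 to 75282230) went faster. It peaked at 81.3 and 54.9 CPM after 1 h, held 4.56 and 5.22 CPM at 2 h and fell to 1.51 and 0.619 CPM at 4 h (log2 fold change of -2.15, SE 0.33, adjusted p = 7.4e-05). By raw count that was 63 and 71 reads at 2 h and 20 and 7 at 4 h. ATF3, a stress-induced member of the same bZIP class (chromosome 1, 212565334 to 212620777), fell from 25.9 and 23.5 CPM to 6.65 and 8.40 CPM (-1.72, SE 0.17, adjusted p = 1.9e-07). Unlike FOS and FOSB it was already at 17.2 and 25.5 CPM at 0 h. JUND, the most stable JUN protein, fell from 183 and 176 CPM to 122 and 124 CPM (-0.54, adjusted p = 8.5e-06). JUN was at 65.0 and 66.3 CPM at 2 h and at 61.1 and 45.5 CPM at 4 h, and JUNB at 27.7 and 25.7 CPM and 26.5 and 24.0 CPM. Neither passed the test, with adjusted p of 0.072 and 0.68. IER2 fell by 0.31 on the log2 scale, from 345 and 363 CPM to 270 and 301 CPM (adjusted p = 0.0031).

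EGR1, a zinc finger factor that answers serum and growth factors, had 95.1 and 105 CPM after 1 h, 22.7 and 28.5 CPM at 2 h and 19.9 and 15.7 CPM at 4 h. Its log2 fold change from 2 h to 4 h was -0.52 (adjusted p = 0.0085), and the call was lost without replicate 2 of 4 h (adjusted p = 0.098) or replicate 2 of 2 h (0.19). Its promoter is shown because it carries the textbook element of this class, the CArG box bound by serum response factor, and JUND because it carries a cyclic AMP response element (TGACGTCA). The lines give RefSeq promoter sequence of GRCh38.p14, 5′ to 3′ on the strand of the gene, with matches in capitals. The EGR1 stretch is on the plus strand of chromosome 5 (138465329 to 138465418) and that of JUND on the minus strand of chromosome 19 (18281763 to 18281852).
EGR1: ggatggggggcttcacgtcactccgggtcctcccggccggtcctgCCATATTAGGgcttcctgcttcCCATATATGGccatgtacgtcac
JUND: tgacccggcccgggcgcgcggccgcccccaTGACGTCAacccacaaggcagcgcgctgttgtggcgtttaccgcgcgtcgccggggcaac
The EGR1 window holds 2 CArG boxes, whose first bases lie 105 and 83 bases before the RefSeq start. Of the 27 immediate early genes tested, 20 had a promoter in the RefSeq table. A CArG box was found in the 250 bases before the start in 2 of these 20, EGR1, which fell, and SRF, which rose. The background was 1.14% of 27305 promoters and 0.929% of the promoters of tested genes. The cyclic AMP response element was found in 1 of the 20 (JUND) against 1.77% of all promoters and 3.07% of those of tested genes. Both strands were searched, and no match says only that these letters are not in this window.

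Members of the Krüppel-like factor family, which bind GC-rich promoter boxes, were among the genes that fell. Of 11 KLF genes tested, 7 fell and the other 4 did not pass the test, against 5.88% of all genes that fell, and the family was picked out after its values were seen. KLF6 (chromosome 10, 3775996 to 3785281) was at 56.9 and 67.1 CPM at 0 h, 263 and 282 CPM at 1 h, 137 and 136 CPM at 2 h and 62.8 and 64.4 CPM at 4 h. The fall from 2 h to 4 h was 2.15-fold (log2 fold change of -1.10, SE 0.093, adjusted p = 1.2e-08), and both libraries of 4 h lay between those of 0 h. KLF11, a repressor in TGF-beta signalling (chromosome 2, 10042849 to 10054836), was highest at 2 h, with 26.9 and 31.9 CPM, and held 9.89 and 10.6 CPM at 4 h (-1.52, SE 0.14, adjusted p = 7.2e-08). KLF9, a glucocorticoid-responsive member, fell from 14.8 and 12.6 CPM to 5.44 and 5.31 CPM, and KLF3, a repressor of the erythroid lineage, from 39.2 and 35.7 CPM to 21.9 and 21.1 CPM. KLF10, an early gene of TGF-beta signalling, fell from 16.6 and 19.3 CPM to 13.8 and 8.67 CPM (-0.66, adjusted p = 0.014), a call that was lost without replicate 2 of 4 h (0.21) or replicate 2 of 2 h. KLF2 and KLF4, known from endothelium and stem cells, were counted in few reads. KLF4 had 18 and 15 reads at 2 h and 2 and 1 at 4 h, a ratio of 9.85 (95% interval of 3.09 to 50.2 by counting error alone). KLF2 had 6 and 8 reads at 2 h and 0 and 0 at 4 h. With a floor of 3 counts over the group at 4 h, KLF2 was 4.18-fold lower, and the lower 95% limit of its ratio was 2.97 by counting error alone. Each of these low calls was lost when certain single libraries were left out, KLF4 without replicate 1 of 2 h or replicate 2 of 4 h and KLF2 without either library of 4 h or replicate 2 of 2 h. KLF1, the erythroid master regulator of the family, was at 78.9 and 75.0 CPM at 2 h and 73.1 and 82.6 CPM at 4 h (adjusted p = 0.95), and its sign turned without replicate 2 of 4 h or replicate 2 of 2 h. KLF3, KLF6, KLF9 and KLF11 kept their calls whichever of the 4 libraries was left out. KLF16 was at 36.2 and 36.8 CPM and 39.9 and 38.6 CPM (adjusted p = 0.55).

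The largest fall among genes with at least 5 CPM was that of OSR2, a zinc finger factor of limb, kidney and palate development. It was at 5.43 and 4.57 CPM at 0 h, 62.8 and 53.6 CPM at 1 h, 39.7 and 30.7 CPM at 2 h and 3.93 and 5.22 CPM at 4 h, and so fell 7.75-fold from 2 h to 4 h (log2 fold change of -2.95, SE 0.17, adjusted p = 4.8e-12). MIR23AHG, the host transcript of the miR-23a, miR-27a and miR-24 cluster, which the annotation classes as antisense, followed the same course. It went from 4.18 and 4.57 CPM at 0 h to 95.2 and 72.8 CPM at 1 h, 25.9 and 22.8 CPM at 2 h and 9.97 and 9.55 CPM at 4 h (-1.32, SE 0.14, adjusted p = 8.5e-07). REST, a repressor of neuronal genes, fell from 18.8 and 18.6 CPM to 8.84 and 9.37 CPM, and WEE1, the kinase that holds CDK1 inactive before mitosis, from 105 and 102 CPM to 61.3 and 50.9 CPM. Of the other genes among the 10 largest falls, CREBRF, RPS6KA5 and TMEM67 fell 2.44-, 2.41- and 2.44-fold. RPL35AP33, a processed pseudogene of a ribosomal protein gene, fell from 33.0 and 28.0 CPM to 4.91 and 6.72 CPM, but its counts may be shared with its parent gene and 92.6% of them were called labelled at 2 h, so its value is uncertain.

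**Figure D2:**
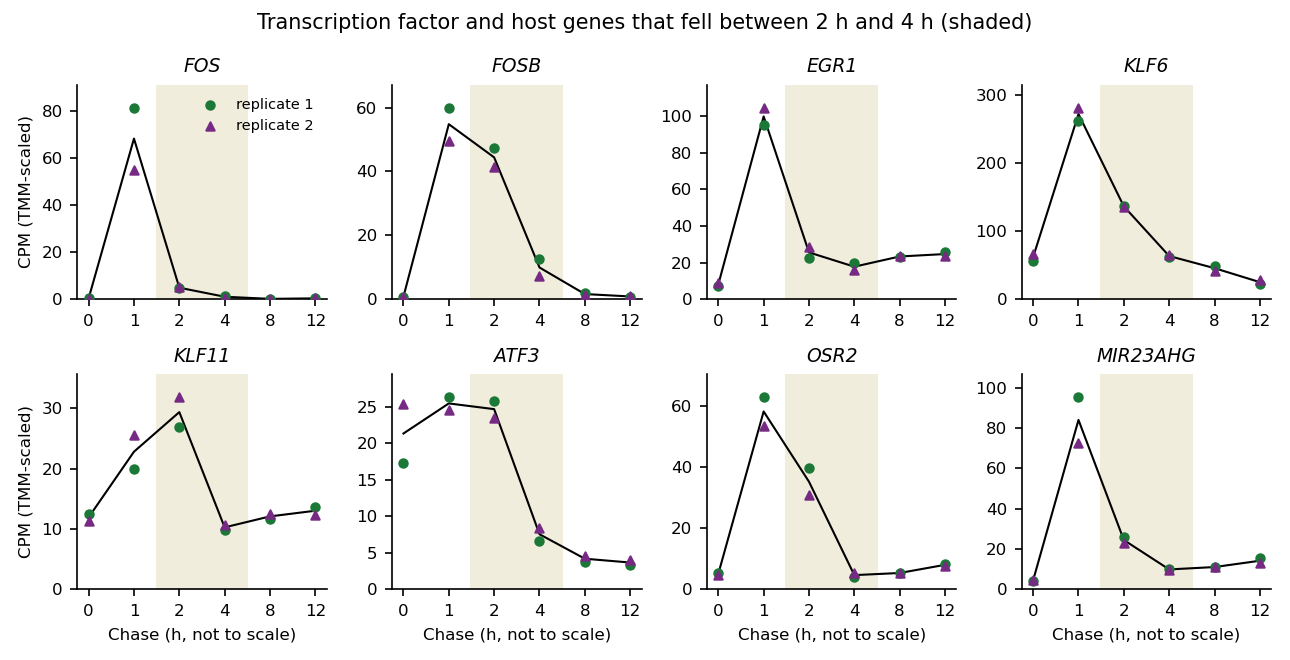
CPM of 8 genes in each chase library against chase time in h (not to scale), with the line through the mean of the 2 replicates and the step from 2 h to 4 h shaded. FOS, FOSB, EGR1, KLF6, OSR2 and MIR23AHG are highest at 1 h, KLF11 at 2 h, and all 8 genes are lower at 4 h than at 2 h in both replicates.

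These genes could be followed back to a step that shares no library with the comparison. From 0 h to 1 h only 52 genes rose and 6 fell (0.320% and 0.0369% of those tested). Of the 52, 22 fell between 2 h and 4 h, which is 42.3% of that list and 2.30% of the 955 genes that fell. They include FOS, FOSB, KLF4, KLF6, KLF10, KLF11, EGR1, OSR2, MIR23AHG, NR4A2, TRIB1, WEE1 and IER2. The call of NR4A2, an orphan nuclear receptor at 2.75 and 3.16 CPM at 2 h and 1.36 and 1.59 CPM at 4 h, was lost whichever of the 4 libraries was left out. A further 8 of the 52 rose again between 2 h and 4 h. The difference between the 2 steps was itself tested. The change from 2 h to 4 h differed from that from 0 h to 1 h for 402 genes, of which 185 changed more positively (1.14%) and 217 more negatively (1.33%). For FOSB the log2 difference was -8.19 (adjusted p = 2.6e-16), for EGR1 -4.15 (1.3e-14) and for KLF6 -3.24 (5.5e-16). Against the late step from 8 h to 12 h, 761 genes changed more positively (4.68%) and 709 more negatively (4.36%).

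The second large group was that of sterol and fatty acid synthesis. Of 33 genes of cholesterol biosynthesis and SREBP control, 19 fell and 2 rose, against 5.88% and 7.35% of all genes, with a median log2 fold change of -0.33. The count of falls was 19 without replicate 2 of 4 h, 18 without replicate 1 of 4 h and 15 and 18 without the replicates of 2 h. It was 13 with spike-in totals as library sizes, where the median was -0.29. MSMO1, which removes the methyl groups of sterols at carbon 4 (chromosome 4, 165327623 to 165343160), fell from 23.8 and 23.8 CPM to 13.4 and 14.2 CPM (-0.79, SE 0.12, adjusted p = 6.9e-05). INSIG1, the protein that holds SREBP in the endoplasmic reticulum (chromosome 7, 155297776 to 155310235), fell from 127 and 129 CPM to 84.2 and 76.3 CPM (-0.67, SE 0.074, adjusted p = 8.5e-07). FADS1, a fatty acid desaturase (chromosome 11, 61799625 to 61829318), fell from 463 and 435 CPM to 268 and 287 CPM, 1.62-fold (adjusted p = 6.6e-08). In all 3 genes both libraries of 4 h lay well below both of 2 h. SCD, the stearoyl-CoA desaturase, fell from 401 and 392 CPM to 276 and 286 CPM, and DHCR7, IDI1, ELOVL6 and FASN fell 1.38-, 1.36-, 1.38- and 1.28-fold.

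LBR, a sterol reductase of the nuclear envelope, rose from 104 and 103 CPM to 123 and 116 CPM (log2 fold change of 0.21, adjusted p = 0.049), a call that was lost without replicate 1 of 4 h and without either library of 2 h. HMGCS1, an early enzyme of the pathway, was at 96.5 and 90.3 CPM and 80.1 and 87.5 CPM (adjusted p = 0.18), so the members did not move as 1 block. SREBF2, which encodes the main sterol-sensing SREBP, fell from 40.5 and 36.6 CPM to 29.2 and 30.3 CPM (-0.37, adjusted p = 0.024), a call that was lost without replicate 1 of 4 h (0.080) or replicate 1 of 2 h. Its own promoter (chromosome 22, plus strand, 41832935 to 41833024, RefSeq, GRCh38.p14) is shown because it carries the core of a sterol regulatory element, CACCCCAC, in capitals.
SREBF2: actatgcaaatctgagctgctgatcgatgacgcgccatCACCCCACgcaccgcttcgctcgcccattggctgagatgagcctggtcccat
These 8 letters, searched on both strands, were found in 1 of the 25 list members with a promoter in the table and in 2.37% of all 27305 promoters, or 2.14% of those of tested genes.

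**Figure D3:**
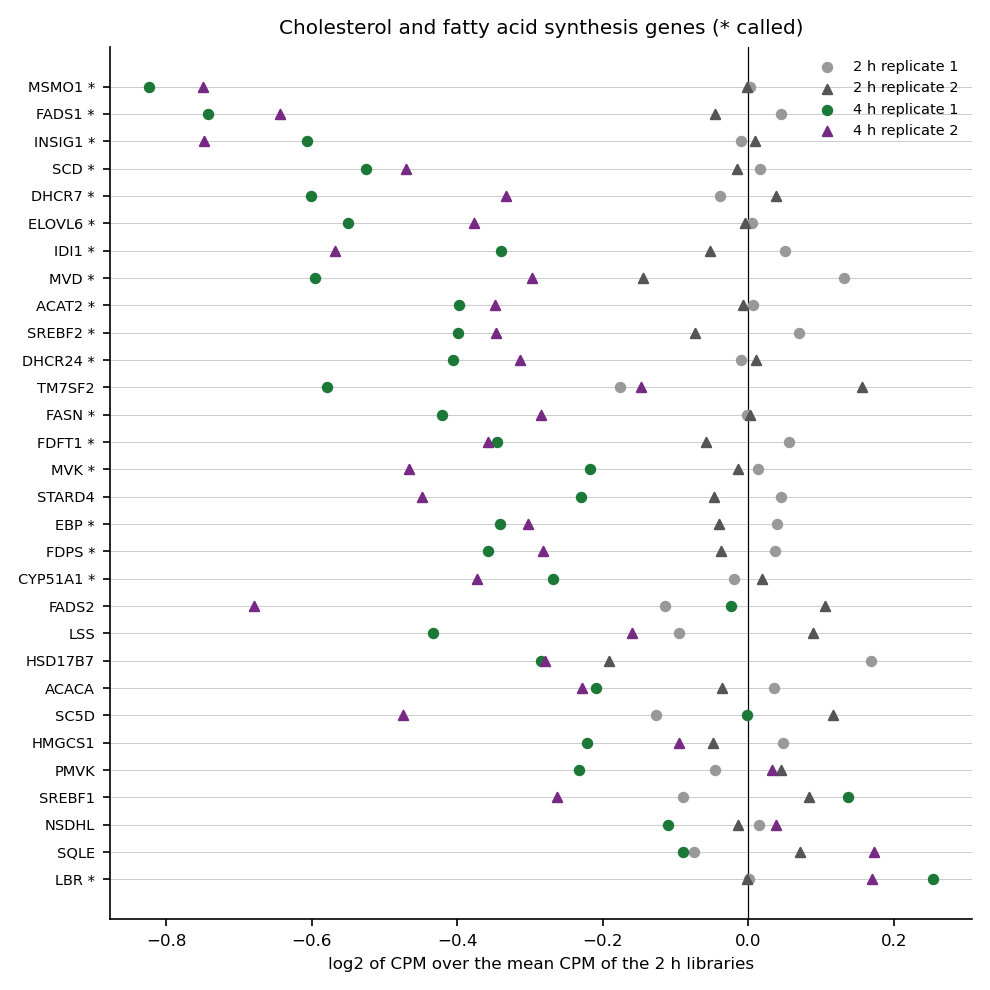
For 30 of the 33 sterol and fatty acid genes, the log2 of the CPM in each library of 2 h (grey) and 4 h (green and purple) over the mean CPM of the 2 h libraries, with called genes starred. For the 17 genes shown that fell, both libraries of 4 h lie left of both libraries of 2 h; LBR is the starred gene to the right.

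Part of the stress response genes fell as well. Of 31 genes of the integrated stress response, which the factor ATF4 drives when amino acids or protein folding fail, 11 fell and 1 rose (median -0.21). The falls numbered 11 without replicate 2 of 4 h, 8 without replicate 1 of 4 h, and 6 and 7 without the replicates of 2 h. DDIT4, an inhibitor of mTORC1, fell from 90.8 and 104 CPM to 59.5 and 58.1 CPM (-0.73, SE 0.097, adjusted p = 1.0e-05). SESN2, a leucine sensor that is also a p53 target, fell from 113 and 119 CPM to 70.0 and 77.7 CPM (-0.65, adjusted p = 4.3e-05). SLC7A11, the cystine importer that the list shares with NRF2 genes, fell from 109 and 116 CPM to 69.6 and 73.7 CPM (-0.65, adjusted p = 1.3e-05). TRIB3 and XBP1 fell 1.37-fold each. ATF4 mRNA itself was at 929 and 906 CPM and 916 and 1043 CPM (adjusted p = 0.42; its sign turned without replicate 2 of 4 h), and DDIT3 at 54.9 and 55.9 CPM and 47.7 and 47.9 CPM (adjusted p = 0.11). CHAC1, which degrades glutathione, was at 6.01 and 4.85 CPM and 4.08 and 4.33 CPM (adjusted p = 0.30). Its promoter was the 1 of 25 in this list with the ATF4 element core TGATGCAA in the 250 bases before the start, on either strand, against 0.82% of all promoters and 0.41% of those of tested genes. Of 21 genes of the oxidative stress factor NRF2, 9 fell and 1 rose (median -0.20), with 7 falls without either library of 4 h and 4 and 5 without those of 2 h. MAFF, a small partner of NRF2, fell from 20.9 and 21.1 CPM to 10.4 and 8.58 CPM (-1.14, SE 0.16, adjusted p = 2.3e-05), and OSGIN1 from 16.1 and 16.1 CPM to 9.21 and 8.93 CPM. NFE2L2, the gene of NRF2, fell 1.39-fold and TXNRD1, thioredoxin reductase, 1.30-fold, but both calls were lost without replicate 2 of 4 h (adjusted p of 0.079 and 0.23) or replicate 2 of 2 h, and that of TXNRD1 also without replicate 1 of 2 h. Of 24 p53 targets, 6 fell (BBC3, PMAIP1, TNFRSF10B, SESN2, RPS27L and FDXR) and the other 18 did not pass, with 3 to 6 falls when single libraries were left out and 4 without replicate 2 of 4 h. K562 cells lack functional p53, and the cause of these falls was not tested.

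The genes that rose included the line's own growth regulators. MYB, the transcription factor that keeps blood progenitors dividing (chromosome 6, 135181315 to 135219173), rose 2.07-fold. It was at 127 and 134 CPM at 0 h, 130 and 135 CPM at 2 h and 263 and 286 CPM at 4 h, a log2 fold change of 1.05 (SE 0.068, adjusted p = 5.5e-11), and 20.3% of its reads were labelled at 4 h against 51.5% at 2 h. ABL1, whose counts include the 3' end of the fusion of this line (chromosome 9, 130713946 to 130887675), rose from 74.0 and 75.4 CPM to 115 and 117 CPM (0.64, SE 0.076, adjusted p = 2.3e-06). MYC had dropped from 96.0 and 92.2 CPM at 0 h to 32.5 and 31.9 CPM at 2 h and rose to 60.3 and 47.0 CPM at 4 h (0.74, SE 0.13, adjusted p = 2.6e-04). Its mean was 41.6 CPM at 8 h and 32.2 CPM at 12 h, so that the mean of 4 h stood above both neighbouring times. Among 25 haematopoietic transcription factors 4 rose and 4 fell. Only 1 fell without replicate 2 of 4 h or with spike-in totals, where 4 rose, and 2 fell and 3 rose without either library of 2 h. HHEX, a homeobox factor of early blood cells, rose from 68.6 and 63.5 CPM to 101 and 104 CPM, ZFPM1, the GATA1 cofactor, from 14.6 and 12.9 CPM to 20.5 and 19.5 CPM and STAT5A from 40.3 and 48.0 CPM to 56.7 and 56.7 CPM. The call of ZFPM1 was lost without replicate 2 of 2 h (adjusted p = 0.10) and that of STAT5A without replicate 1 of 2 h (0.19). GATA1 fell from 85.0 and 76.8 CPM to 66.8 and 67.0 CPM (-0.28, adjusted p = 0.022), a call that was lost without either library of 4 h (0.055 and 0.056) or replicate 1 of 2 h. Of 41 genes of erythroid structure, globin and haem synthesis 5 fell and 1 rose. The count turned to 2 falls and 3 rises without replicate 2 of 4 h, and 1 fell without replicate 1 of 4 h, without replicate 1 of 2 h or with spike-in totals. HBG1, HBG2 and TFRC, the transferrin receptor, did not pass (adjusted p of 0.38, 0.23 and 0.39), and the sign of HBG1 turned without replicate 1 of 2 h. In these bulk samples fewer cells of a type and less RNA per cell cannot be told apart.

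Some targets of STAT5, the factor that BCR-ABL1 keeps active, rose, among them feedback inhibitors of cytokine signalling. Of 13 STAT5 targets tested 4 rose, 1 fell and 8 did neither. The rises numbered 3 to 5 when single libraries were left out and 5 without replicate 2 of 4 h. SOCS1, which shuts JAK kinases (chromosome 16, 11254405 to 11256200), was at 3.66 and 3.54 CPM at 0 h, 0.220 and 1.22 CPM at 1 h, 2.03 and 2.35 CPM at 2 h and 7.55 and 6.54 CPM at 4 h. Its rise from 2 h to 4 h was 3.22-fold (log2 fold change of 1.69, SE 0.30, adjusted p = 4.1e-04). SOCS3 rose from 9.41 and 10.1 CPM to 22.2 and 16.3 CPM (0.99, SE 0.15, adjusted p = 7.3e-05), and ID1, an inhibitor of basic helix-loop-helix factors, went from 21.4 and 22.9 CPM to 35.3 and 39.2 CPM (0.75, adjusted p = 8.3e-06). In all 3 genes both libraries of 4 h lay above both of 2 h. CISH rose from 22.2 and 25.2 CPM to 35.4 and 28.1 CPM (0.42, adjusted p = 0.011), a call that was lost without replicate 1 of 4 h (0.24) or replicate 1 of 2 h. PIM1, a kinase of the same group, was at 179 and 201 CPM and 249 and 192 CPM (adjusted p = 0.24). The CISH promoter (chromosome 3, minus strand, 50611865 to 50612024, RefSeq, GRCh38.p14) is shown because it is the textbook STAT5 target, with matches to the STAT site TTCNNNGAA in capitals.
CISH: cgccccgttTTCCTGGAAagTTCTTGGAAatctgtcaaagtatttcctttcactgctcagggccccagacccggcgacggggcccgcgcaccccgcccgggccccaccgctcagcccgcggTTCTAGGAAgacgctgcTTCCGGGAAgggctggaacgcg
The window holds 4 such sites. On both strands, at least 1 was found in 2 of the 10 members of the list with a promoter in the table (CISH and BCL6), against 6.78% of all promoters and 5.49% of those of tested genes.

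**Figure D4:**
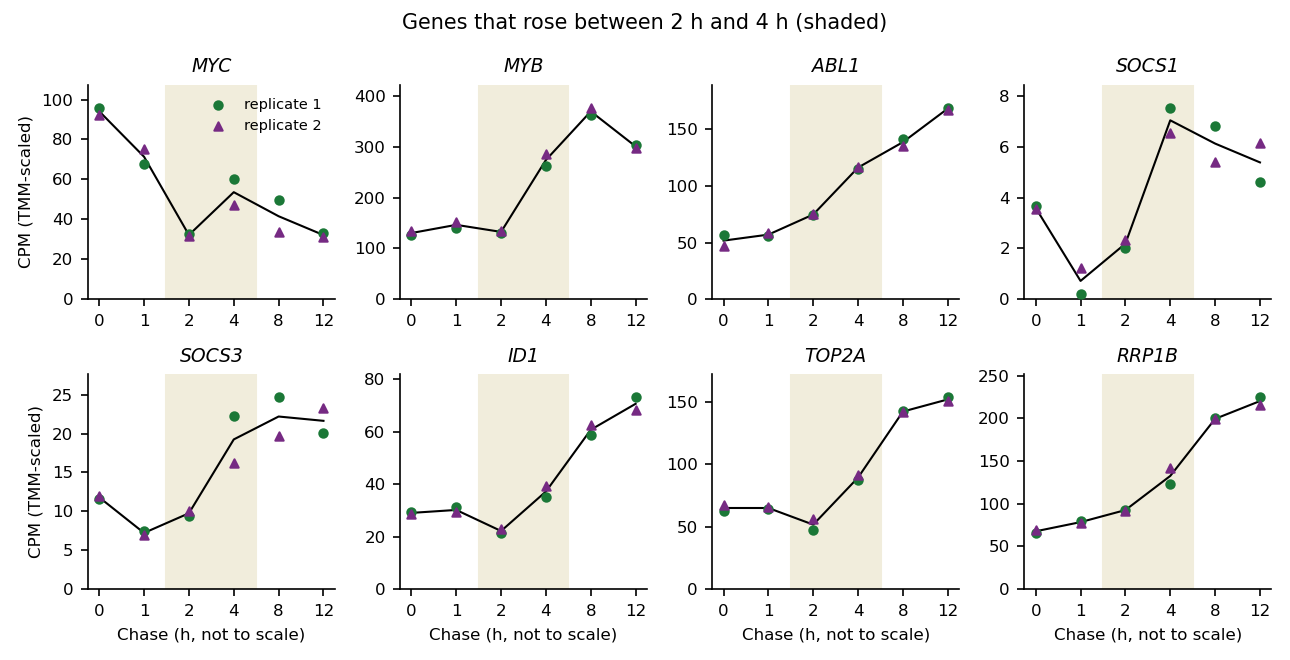
CPM of 8 genes in each chase library against chase time in h (not to scale), with the line through the mean of the 2 replicates and the step from 2 h to 4 h shaded. MYC, SOCS1 and SOCS3 first fall after 0 h and are higher again at 4 h, MYB is near level up to 2 h and then higher, and ABL1 and RRP1B climb up to 12 h.

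Many genes of ribosome assembly rose. Of 65 tested 23 rose and 6 fell, against 7.35% and 5.88% of all genes, with a median of 0.15, and 17 rose without either library of 4 h and 15 and 14 without those of 2 h. The rises were small. RRP1B, a nucleolar partner of ribosomal RNA processing (chromosome 21, 43659548 to 43696079), rose from 93.2 and 92.0 CPM to 123 and 142 CPM (0.52, SE 0.074, adjusted p = 2.4e-05). BMS1, a GTPase of the small subunit, rose from 52.7 and 56.0 CPM to 74.1 and 71.1 CPM, and NAT10, which acetylates cytidines in ribosomal RNA, from 86.9 and 87.7 CPM to 108 and 119 CPM (0.37, adjusted p = 8.5e-04). BOP1 fell from 39.3 and 41.5 CPM to 24.9 and 28.7 CPM (-0.60, adjusted p = 2.8e-04), and MPHOSPH10 fell 1.35-fold. NAT10 is among the 9 of 56 members (16.1%) with an E-box, CACGTG, the site of MYC, in the 250 bases before the start, against 6.49% of all promoters and 9.11% of the promoters of tested genes. The last 64 bases before the NAT10 start (chromosome 11, plus strand, 34105565 to 34105628, RefSeq, GRCh38.p14) show it in capitals.
NAT10: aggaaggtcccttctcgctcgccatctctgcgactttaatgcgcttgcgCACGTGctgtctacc
Of the list members with an E-box 3 rose, 1 fell and 5 did neither. The proteins of the ribosome itself showed other counts: of 84 cytosolic ribosomal protein genes 6 fell and the other 78 did not pass, with a median of -0.09. The falls numbered 2 without replicate 2 of 4 h and 12 without replicate 1 of 4 h, and none was called without replicate 1 of 2 h or with spike-in totals as library sizes.

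Most cell cycle genes did not pass the test. Of 47 G2/M genes 9 rose, 2 fell and 36 did neither, with 6 to 10 rises when single libraries were left out (10 without replicate 2 of 4 h, 6 without replicate 1 of 2 h). TOP2A, the topoisomerase of mitotic chromosomes (chromosome 17, 40388516 to 40417950), rose from 47.6 and 55.9 CPM to 87.5 and 91.5 CPM (0.79, SE 0.081, adjusted p = 2.3e-07), and AURKA, a spindle kinase, from 153 and 158 CPM to 216 and 224 CPM (0.50, adjusted p = 9.7e-06). PLK1 and CDC20 rose 1.36- and 1.33-fold. NDC80 and KIF23, of the kinetochore and the spindle midzone, were the 2 that fell, 1.33- and 1.27-fold, and both calls were lost without replicate 2 of 4 h (adjusted p of 0.11 and 0.17), without replicate 1 of 2 h, and for NDC80 without replicate 1 of 4 h and for KIF23 without replicate 2 of 2 h. Of 40 G1/S genes 6 rose, 2 fell and 32 did neither, with 4 rises without replicate 2 of 4 h or replicate 1 of 2 h and 3 without replicate 2 of 2 h. The largest changes were those of the replication initiators MCM10 (47.6 and 49.9 CPM to 70.8 and 74.7 CPM) and CDC6 (28.1 and 27.9 CPM to 37.7 and 41.7 CPM). Of 71 replication-dependent histone genes only 26 passed the filter on low counts. Their mRNAs mostly end in a stem-loop without a poly(A) tail. Of these 26, 9 fell and the other 17 did not pass, but 4 fell without replicate 2 of 4 h and 2 without replicate 1 of 2 h, and near-identical copies may share reads.

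Part of the chaperones rose. Of 21 heat shock genes 6 rose and 1 fell (4 rose without replicate 2 of 4 h), with AHSA1, the activator of HSP90, from 116 and 101 CPM to 168 and 171 CPM (0.64, SE 0.072, adjusted p = 1.1e-06), HSF2 1.41-fold and HSPH1 1.39-fold. Of 8 subunits of the CCT chaperonin, which folds actin and tubulin, 4 rose and the other 4 did not pass (2 rose without replicate 2 of 4 h), with the largest change for CCT6A, from 353 and 327 CPM to 428 and 432 CPM. In energy metabolism the small changes pointed down. Of 80 nuclear respiratory chain genes 13 fell and 1 rose (median -0.12; 8 falls without replicate 2 of 4 h, 3 without replicate 1 of 2 h and 1 with spike-in totals). Of 22 glycolysis genes 8 fell and 1 rose (4 falls without either library of 4 h, 1 without replicate 1 of 2 h and none with spike-in totals), with the glucose transporter SLC2A3 as the 1 that rose, from 36.6 and 33.1 CPM to 52.0 and 49.7 CPM. Of 12 mitochondrially encoded mRNAs 4 fell, MT-ATP6 from 1523 and 1526 CPM to 1067 and 1180 CPM (-0.44, adjusted p = 4.3e-05), and 8 fell without replicate 2 of 4 h. HBP1, a repressor of cell cycle entry and a MondoA target, fell from 25.6 and 25.3 CPM to 10.3 and 12.8 CPM (-1.14, adjusted p = 7.2e-06), whereas TXNIP, the best known MondoA target, was at 163 and 161 CPM and 185 and 164 CPM (adjusted p = 0.41). Reference genes were near level: GAPDH and ACTB did not pass (adjusted p of 0.80 and 0.079; the sign of GAPDH turned without replicate 1 of either time and with spike-in totals), and EEF1A1 fell by 0.20 on the log2 scale (adjusted p = 0.033), a call that was lost without replicate 2 of 4 h (0.36) and without either library of 2 h.

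**Figure D5:**
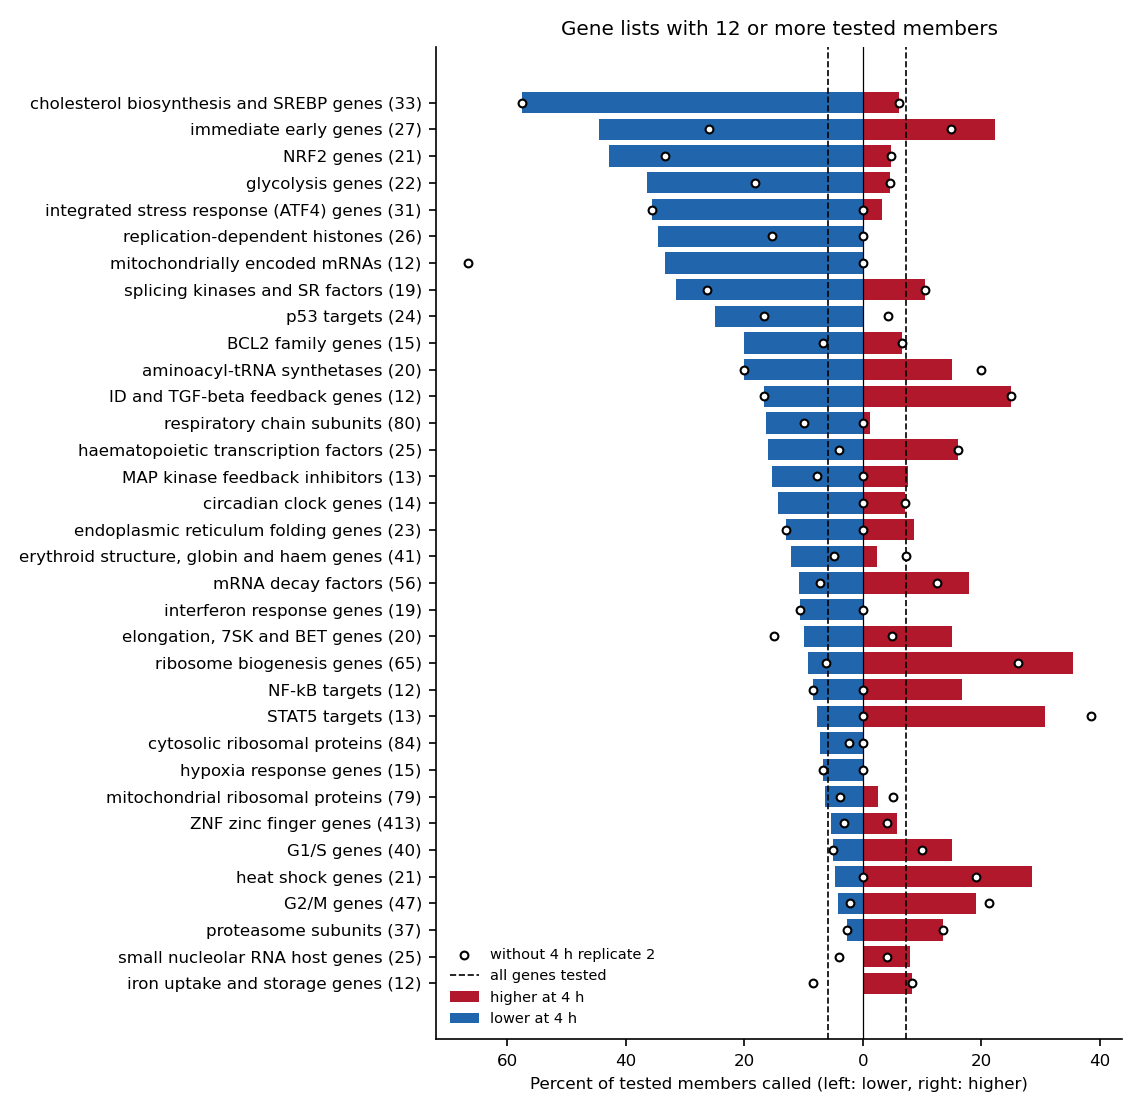
Share of the tested members of each gene list with at least 12 tested members (number tested in brackets) that fell (blue, left) or rose (red, right) from 2 h to 4 h, with open circles for the shares without replicate 2 of 4 h and dashed lines for all genes tested (5.88% and 7.35%). Of the lists drawn, sterol genes reach furthest to the left and ribosome biogenesis genes furthest to the right; the circles of immediate early genes, histones and mitochondrially encoded mRNAs lie far from their bars.

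Apart from the lists, the 10 largest rises held 8 protein coding genes. FBXO10, a receptor of a ubiquitin ligase (chromosome 9, 37510892 to 37576349), rose 2.78-fold from 9.34 and 9.27 CPM to 28.2 and 23.5 CPM (adjusted p = 5.2e-08). SUFU, an inhibitor of Hedgehog signalling (chromosome 10, 102503987 to 102633535), rose 2.77-fold from 2.68 and 3.16 CPM to 8.76 and 7.43 CPM. SPIRE1, TRIM66, SLC36A1, TNRC6C, SEMA4B and CAMSAP2 rose between 2.25- and 2.58-fold. All 8 kept their call whichever of the 4 libraries was left out. RPL12P19 and RPS14P4, processed pseudogenes of ribosomal protein genes, were the other 2, and reads of their parent genes may be counted there.

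BCL11B and FGG, both protein coding, had almost no reads before 4 h. They were noticed after their values were seen, as genes with at most 10 reads over the 6 libraries of 0 h to 2 h and at least 10 in each library of 4 h. BCL11B, a zinc finger factor of T cell commitment (chromosome 14, 99169287 to 99271524), had 1 read in all over the 6 libraries of 0 h to 2 h, in replicate 1 of 1 h. It had 30 and 20 reads at 4 h, then 28 and 20 reads at 8 h, and 13 and 11 reads in the libraries of 12 h. The library without 4sU had 0. With a floor of 3 counts over the group in place of the 0 reads at 2 h, the level at 4 h was 18.6-fold higher (adjusted p = 5.5e-05). That ratio is not a lower bound. The upper 95% limit of the ratio of 2 h to 4 h was 0.0686 by counting error alone. FGG, the gamma chain of fibrinogen (chromosome 4, 154604134 to 154612967), had 9 reads over the 6 early libraries, 2 of them at 2 h, and 51 and 50 at 4 h, a ratio of 56.4 (95% interval of 15.2 to 472 by counting error alone; adjusted p = 3.1e-06). Its reads then numbered 34 and 28 at 8 h and 16 and 26 at 12 h, with 0 in the library without 4sU. Both genes passed the filter on low counts only through libraries from 4 h on. Their adjusted p and 95% limits rest on the same reads that picked them. These values are therefore not separate support, and the limits take no account of that choice. Of the reads from 4 h on, 0 of 122 were labelled for BCL11B and 1 of 205 for FGG. A processed pseudogene without a symbol, ENSG00000267589, showed the same course with 41 and 31 reads at 4 h. But 213 of its 213 reads from 4 h on were called labelled, the opposite of BCL11B and FGG. Of all human counts, only 10.9% and 10.6% were labelled in the 12 h libraries, so the value of this pseudogene is uncertain.

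Labelled and unlabelled reads were also counted apart. Among the 1195 genes that rose, unlabelled CPM was higher at 4 h for 1191 and labelled CPM was lower for 1038 (86.9%). Over all genes tested, unlabelled CPM was higher for 69.6% and labelled CPM lower for 85.4%, so the labelled count of the genes that rose was near the background. Among the 955 that fell, labelled CPM was lower for 930 (97.4%) and unlabelled CPM was lower for 752, against 4913 of all 16255 genes. Labelled and unlabelled CPM add up to the total on which the genes were called, in the same libraries. The counts for genes that rose or fell are therefore in part fixed by the call and are not separate support for it. KLF6 gave 33.9 labelled and 103 unlabelled CPM at 2 h and 9.12 and 54.5 CPM at 4 h, so that both parts fell, whereas MSMO1 went from 15.8 to 4.87 labelled CPM and from 7.99 to 8.93 unlabelled CPM. MYB went from 68.4 to 55.7 labelled CPM and from 64.3 to 219 unlabelled CPM. The share of reads labelled at 0 h had a median of 63.2% in genes that rose, 44.7% in genes that fell and 57.1% in the rest (genes with at least 100 reads at 0 h). The quartiles overlapped, at 53.8% to 70.2%, 20.6% to 68.4% and 38.7% to 69.2% in the same order. The library without 4sU lay above the mean of 2 h for 78.1% of the genes that rose, for 39.7% of those that fell and for 45.3% of the rest. The libraries of 2 h also entered the calls, so this contrast is in part fixed by the choice of genes. On the spike-in component the library without 4sU (2.08) also lay with replicate 2 of 4 h and apart from those of 2 h. In the single library without 4sU MYB was at 255 CPM, ABL1 at 292 CPM and ID1 at 154 CPM, above both libraries of 2 h, and ATF3 at 2.66 CPM, FOSB at 0.496 CPM and KLF11 at 16.2 CPM were below them. The part of the 4sU content itself in the changes was not tested.

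Most of these changes had the sign of the whole chase. Between 12 h and 0 h, which share no library with 2 h and 4 h, 4388 genes were higher (27.0%) and 4737 lower (29.1%). Of the genes that rose from 2 h to 4 h, 1057 (88.5%) were higher at 12 h than at 0 h and 18 were lower, and these 1057 were 24.1% of all genes higher at 12 h. Of those that fell, 769 (80.5%) were lower and 44 higher, and the 769 were 16.2% of all genes lower at 12 h. On the spike-in component both 0 h libraries (-3.53 and -3.8) lay with those of 2 h. Both 12 h libraries (4.58 and 4.35) lay with replicate 2 of 4 h. That difference runs through both comparisons, so their agreement is not fully separate support. The part of the spike-in difference in it was not tested. MYC, which rose from 2 h to 4 h, was 1.55 log2 units lower at 12 h than at 0 h (log2 fold change of -1.55), and IER2, which fell, was higher (1.80). By type of gene, 9.65% of 11509 protein coding genes rose and 7.01% fell, against 1.19% and 3.57% of 2267 pseudogenes and 1.92% and 2.61% of 728 lincRNAs. Of 413 ZNF zinc finger genes tested 24 rose and 22 fell. These counts were 17 and 13 without replicate 2 of 4 h, 27 and 15 without replicate 1 of 4 h, 9 and 9 without replicate 1 of 2 h, 11 and 5 without replicate 2 of 2 h, and 15 and 4 with spike-in totals.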

How the data were processed

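The authors deposited raw read counts per human gene (all reads, and reads called labelled) and per Drosophila gene, per the labels and the values. The submitters' processing notes list Trim Galore 0.6.5, bcl2fastq 2.17.1.14 and bedtools, with hg38 and dm6 as builds. Aligner, counter, annotation, strand setting and the rule for a labelled read: not given in the sources used here. No label states whether replicates came from separate cultures, and p-values may therefore cover technical spread alone. Replicates differed by more than sampling noise (chi-square per degree of freedom of 7.58 at 2 h and 11.1 at 4 h).

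Total counts of 13 libraries were fitted as 7 groups in edgeR 4.0.16 (R 4.3.3) with filterByExpr, TMM scaling, the two-sided quasi-likelihood test and Benjamini-Hochberg adjustment over all genes tested, called under 0.05. The biological coefficient of variation was 6.61%. The unlabelled control has no replicate. A standard error is the log2 fold change over the root of F. The fit was also run on simulated counts in which every gene had the same spread and no library stood apart. That setting is simpler than these data, so the run does not show how reliable the calls are. The spike-in component used 648 genes averaging 200 counts or more. Intervals of count ratios are exact binomial ones at 95%. Of the gene IDs, 40541 took a symbol from a table of gene names and 731 from GENCODE 29, and 17932 had none. Gene coordinates are those of GENCODE 29 on GRCh38, counted from 1.

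The comparison, the 40 gene lists and the rules were chosen with earlier results of these data known. By rule, 111 genes could be named: the 10 largest rises and the 10 largest falls (ranges of the groups apart, mean CPM of 5 or more), the 2 most changed called members of each list, and preset genes (MYC, JUNB, IER2, FOS, EGR1, KLF6, GATA1, KLF1, HBG1, HBG2, TFRC, HMGCS1, ATF4, DDIT3, CHAC1, TXNIP, ABL1, ACTB, GAPDH, EEF1A1). Some results are not reported here. A further 57 genes were picked after their values were seen, as were the motif searches and the crossed block. Alternatives were DESeq2 1.42.0 (size factors, test), other filters, spike-in totals, the replicate number as a block, the spike-in side as a factor, a test against 1.2-fold, the 4 libraries alone and each library left out.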

Additional observations from a re-analysis of the deposited data

Results flagged for a closer look

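The change from 2 h to 4 h differed from the change from 0 h to 1 h for 402 genes, by a test of the difference between the 2 changes. By the same test it differed from the change from 8 h to 12 h for 1470 genes. The changes compared share no library.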

How the results depend on the processing

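The counts of 1195 genes that rose and 955 that fell stayed within 1.5 times under DESeq2 size factors and the DESeq2 test. The same held for a filter at a mean of 5 CPM and for no filter. The counts were 763 and 505 with the 4 libraries alone, and 223 and 123 in the test against 1.2-fold. The spike-in side as a factor was not a separate check, because only the 4 h group had libraries on both sides. Its term was set by the 4 h pair, so that fit was nearly the one without replicate 2 of 4 h. With spike-in totals as library sizes 797 rose and 307 fell, and the median log2 fold change of all genes moved from -0.02 to 0.02. Leaving out single libraries gave 613 to 1070 rises and 368 to 958 falls, the lowest without replicate 1 of 2 h and the highest without replicate 1 of 4 h. The 402 genes whose change differed from that of 0 h to 1 h were 152 with spike-in totals and 191 (without replicate 1 of 2 h) to 674 (without replicate 1 of 4 h), and 211 without replicate 2 of 2 h. The 1470 that differed from the step from 8 h to 12 h were 639 with spike-in totals and 793 (without replicate 1 of 2 h) to 1565 (without replicate 2 of 4 h). The causes were not tested. Among uncalled genes, the log2 fold change of KLF1 turned to -0.07 when the spike-in side was a term of the model and lay between -0.07 and 0.10 when single libraries were left out, that of ATF4 to -0.00 and between -0.00 and 0.18, that of HBG1 lay between -0.20 and 0.01, and that of GAPDH turned to 0.01 with spike-in totals and lay between -0.11 and 0.05.

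With the replicate block 1315 genes rose and 1132 fell. The deviations of same-numbered samples of 2 h and 4 h had a correlation of -0.19 over 6021 genes of at least 20 CPM. That value shows no pairing between these 2 times. It cannot exclude pairing, because replicate 2 of 4 h lay apart on the spike-in component. With the numbers of 4 h crossed, an alternative added after seeing the data, 1181 rose and 967 fell. Both counts were lower than with the numbers as labelled, so whether same-numbered samples are paired is not settled. Genes with few reads, such as KLF2, KLF4 and BCL11B, are limited by depth.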
